A study of Mus musculus with 78 samples.

Results

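Motile cilia and the genes of their axoneme were followed in mouse brain across 3 ages and in mutants of the LIS1 neuronal migration complex. The genes were chosen by symbol alone: every gene of the array whose symbol begins with Dnah, Dnai, Tekt, Cfap, Rsph or Spag, together with Foxj1. This gave 59 genes of the 18194 that a probe set of the array names, each read from 1 probe set, that with the highest mean when all 78 arrays are averaged. By role they were 25 cilia and flagella associated proteins (Cfap), 10 axonemal dynein heavy chains (Dnah), 2 axonemal dynein intermediate chains (Dnaic1 and Dnaic2), 5 tektins, 6 radial spoke proteins (Rsph), 6 Spag genes of the axoneme or its assembly, 4 Spag genes with other roles (Spag4, Spag5, Spag7 and Spag9) and the transcription factor Foxj1. The symbol rule brings in those 4 Spag genes by name only, and they are described apart from the others.

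The study asked whether mutations of different members of the LIS1 complex change gene expression in the developing brain in a similar or in a distinct way. Total RNA of brain was hybridized to 1 array per sample, with 3 arrays, labelled as biological replicates, in each of 26 groups. At embryonic day 14 (E14) the groups were WT mix background A, WT mix background B, Lis1 ko/+, Lis1 ko/cko, Ndel ko/+, Ndel ko/cko, Dcx ko/Y and 14-3-3 ko/ko. At the day of birth (P0) they were WT mix background A, WT mix background B, WT inbred background, Lis1 ko/+, Lis1 ko/cko, Ndel ko/+, Ndel ko/cko, Dcx ko/Y, Ndel ko/+ inbred and 14-3-3 ko/ko inbred. At postnatal day 14 (P14) they were WT mix background A, WT mix background B, WT inbred background, Lis1 ko/+, Lis1 ko/cko, Ndel ko/+, Ndel ko/cko and Ndel ko/+ mix background. Here ko is a null and cko a conditional allele, and the titles of the inbred groups carry the strain name 129s6. The labels used here name neither a Cre driver for the conditional alleles nor the control of each mutant. A mutant of mixed or unstated background was therefore compared with both mixed wild types, and a change was called only where both differences had the same sign and the larger of the 2 p-values passed. LIS1, encoded by Pafah1b1, and NDEL1 bind cytoplasmic dynein and regulate it. 14-3-3 epsilon, encoded by Ywhae, binds phosphorylated NDEL1, and doublecortin, encoded by Dcx, binds microtubules.

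A motile cilium is built on an axoneme of microtubule doublets around a central pair, and it bends when dynein arms on one doublet walk along the next. The heavy chains are the motors, the intermediate chains hold the outer arms together, radial spokes link the doublets to the central pair, and tektins run as filaments inside the doublets. In the brain such cilia stand on ependymal cells, which line the ventricles and move cerebrospinal fluid, and on choroid plexus epithelium. FOXJ1, with factors of the RFX family that bind the X-box, switches their genes on. Axonemal dyneins are distinct from the cytoplasmic dynein that LIS1 and NDEL1 bind.

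The promoters below are shown because they hold a match to the RFX X-box before the start and belong to members whose levels are described later. Dnaic2, which stayed under the filter on levels, is shown beside its partner chain Dnaic1. The pattern searched did not require a palindrome, and the matched stretch of Spag5 is not one. RefSeq promoter windows on GRCm38.p6, of 250 bases before to 50 bases after a start, were at hand for 49 of the 59 genes. On either strand, the RFX X-box with a spacer of 0 to 3 bases was found in 10 of these 49 (20.4%) and in 500 of 14453 array genes with a window (3.46%). The forkhead core GTAAACA was found in 4 of 49 (8.16%: Cfap20, Cfap43, Dnah17 and Tekt3) and in 3.4% of array genes. The 10 with an X-box were Cfap206, Cfap20dc, Cfap298, Cfap45, Dnaic1, Dnaic2, Spag16, Spag5, Tekt2 and Tekt4, the last with its box after the start and so not shown. Members had a mean of 1.14 windows and array genes 1.25, and a match describes letters in a window, not a bound site. Each line reads 5′ to 3′ on the strand of the gene and ends at the base before the start, with the X-box in capitals. Tekt2 lies at chr4:126325689-126325788 on the minus strand and its X-box begins 29 bases before the start. Dnaic1 lies at chr4:41569694-41569793 on the plus strand, with the X-box beginning 19 bases before the start, and Dnaic2 at chr11:114727319-114727418 on the plus strand, with 33 bases. Cfap20dc lies at chr14:8666291-8666422 on the minus strand, with 102 bases. Cfap298 lies at chr16:90934850-90935067 on the minus strand and holds 2 X-boxes, which begin 188 and 69 bases before the start. Spag5 lies at chr11:78301375-78301590 on the plus strand, with 186 bases.
Tekt2: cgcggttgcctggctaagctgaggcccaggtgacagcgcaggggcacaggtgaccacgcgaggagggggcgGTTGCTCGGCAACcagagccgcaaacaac
Dnaic1: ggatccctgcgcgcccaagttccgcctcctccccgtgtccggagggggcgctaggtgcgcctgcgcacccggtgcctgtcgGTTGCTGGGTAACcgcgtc
Dnaic2: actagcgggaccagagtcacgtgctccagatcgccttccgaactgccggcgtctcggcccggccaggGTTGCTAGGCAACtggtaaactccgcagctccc
Cfap20dc: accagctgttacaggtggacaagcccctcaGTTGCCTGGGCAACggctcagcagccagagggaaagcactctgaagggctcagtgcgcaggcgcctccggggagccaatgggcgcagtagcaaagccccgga
Cfap298: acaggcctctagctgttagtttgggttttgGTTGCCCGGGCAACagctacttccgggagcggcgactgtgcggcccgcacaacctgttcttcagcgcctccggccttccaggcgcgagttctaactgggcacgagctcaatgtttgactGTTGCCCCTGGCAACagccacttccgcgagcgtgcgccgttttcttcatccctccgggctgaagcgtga
Spag5: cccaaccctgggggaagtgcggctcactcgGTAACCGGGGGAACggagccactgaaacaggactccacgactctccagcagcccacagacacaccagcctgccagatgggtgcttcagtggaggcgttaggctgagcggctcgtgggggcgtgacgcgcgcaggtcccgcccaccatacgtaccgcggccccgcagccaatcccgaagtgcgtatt
Tekt2 and Dnaic1 each carry a box close to the start. Whether a box bears on the level of its gene was not tested.

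The arrays were checked against their labels and for features that touch the results. Dcx was at 4.58 and 4.30 in Dcx ko/Y at E14 and P0, and Ywhae at 9.83 in 14-3-3 ko/ko inbred against 12.75 in its wild type. At E14 only replicate 3 of the arrays labelled 14-3-3 ko/ko had lost Ywhae (9.97), while replicates 1 and 2 kept it (12.68 and 12.92). Ndel1 in the P0 groups was at 9.33 in Ndel ko/+ and 9.56 in Ndel ko/cko against 9.89 and 9.74 in mixed wild types A and B, but in the library group labelled Ndel ko/+ inbred it was at 10.06 against 9.91 in its wild type, and at P14 in that labelled Ndel ko/+ mix background at 10.55 against 10.39 and 10.32. Pafah1b1 was below both wild types in the Lis1 groups at E14 and P14, but at P0 Lis1 ko/+ (10.01) and Lis1 ko/cko (10.08) lay above mixed B (9.95) and below mixed A (10.51). On 2 E14 arrays, Lis1 ko/+ replicate 1 and Lis1 ko/cko replicate 1, the choroid plexus product Ttr was at 4.297 and 4.003, against a median of 13.52 on the other 22 arrays, whose highest was at 13.68. The tissue is labelled only as brain.

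Nearly as many of the 59 genes stayed under the limit for testing as reached it. Testing was limited to genes with at least 1 group mean of 5.253 or more, which is the median of all values on the log2 RMA scale. In the fit of wild types over ages 31 of the 59 reached it and 28 did not; 13 of the 31 reached it at each of the 3 ages. Spag5 passed only through E14, Tekt4 only through P0, and Dnaic1 and Tekt5 only through P14, so a difference between ages was built into their being tested. Among other genes called over ages, Cfap54 and Cfap57 did not reach the limit at E14, and Spag1, Spag4, Cfap52 and Dnah11 not at P0. Foxj1, Tekt2, Dnah1, Spag8 and Cfap300 did not reach it at P14. For such a gene, a change between an age over the limit and an age under it is a description as much as a test. Within an age, Cfap54 at E14, Dnah11 at P0, and Dnah1 and Tekt4 at P14 were tested only through mutant groups, since every wild-type mean lay under the limit. The 28 genes below the filter were 13 Cfap genes, 6 heavy chains, the intermediate chain Dnaic2, 4 radial spoke genes, the tektin Tekt3 and 3 axonemal Spag genes. They include core parts of the motile axoneme: the outer arm motors Dnah5 and Dnah9, the spoke head gene Rsph4a, and the central apparatus genes Spag6, Spag16 and Spag17. Spag6l, the other Spag6 copy, did reach the limit. Across all arrays Dnah5 ranged from 3.53 to 4.43, Spag17 from 3.33 to 3.95 and Spag6 from 2.83 to 3.54, so that neither age nor genotype brought any of these 3 to the filter. A low array value bounds no amount of RNA, since probe sets differ in background and affinity. In RNA of bulk tissue, fewer ciliated cells and less RNA per cell cannot be told apart.

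**Figure D1:**
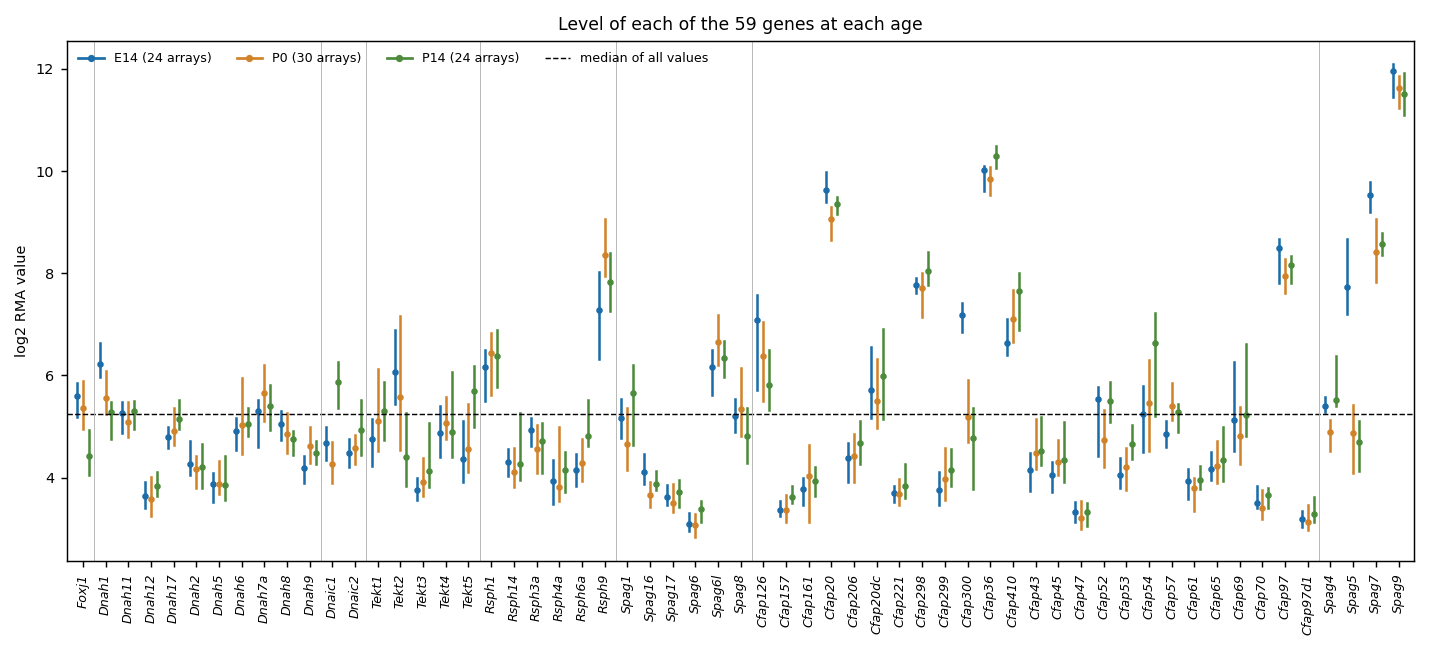
Level of each of the 59 genes on the log2 RMA scale (vertical axis) at E14, P0 and P14, ordered by role, with bars from the lowest to the highest array and points at the median over 24, 30 and 24 arrays. The dashed line at 5.253 is the filter: 28 genes, among them Dnah5, Dnah9 and Spag17, lie under it by their group means.

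Between E14 and birth the axonemal genes did not move as 1 group in wild types. The spoke head gene Rsph9 and the central apparatus genes Cfap54 and Spag6l rose, as did Cfap57, while Foxj1 did not pass the test. Of the 31 tested, 4 were higher and 9 lower at P0 (41.9% called), where 49.8% of all genes tested were called, 14.8% higher and 35% lower. Their median change was 0.15 on the log2 scale relative to the median gene, which itself fell by 0.19. Ages are compared relative to that median gene throughout, while tests were run on the values as deposited.

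Rsph9 encodes a protein of the spoke head. On the arrays of mixed A it stood at 7.27, 7.30 and 6.87 at E14 and at 8.55, 8.29 and 8.31 at P0, and on those of mixed B at 7.24, 7.19 and 7.26, then 8.05, 8.47 and 8.31. The ages did not overlap on either background, and the rise was 1.33 ± 0.15 (SE, log2 relative to the median gene, 2.52-fold; limma, adjusted p = 4.36e-06). Cfap54, of the central apparatus, went from 5.33, 4.92 and 4.91 to 5.48, 5.43 and 5.81 on mixed A and from 4.89, 5.26 and 5.26 to 6.21, 6.15 and 6.31 on mixed B, without overlap within a background. Its rise was 1.00 ± 0.15 (limma, adjusted p = 0.0056). Without the 6 E14 arrays in which midbrain, hindbrain and spinal cord genes were lowest, 2 of them wild type, the Cfap54 value was 0.67 on the deposited scale and its adjusted p 0.375. Spag6l, the axonemal Spag6 copy, rose by 0.92 ± 0.17 (adjusted p = 0.00593) and Cfap57, linked to the inner arms, by 0.83 ± 0.12 (adjusted p = 0.00176), both by limma.

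Of the 9 members that fell before birth, 4 were Spag genes with roles outside the axoneme, which is all of that group. Spag5 encodes astrin of the mitotic spindle: it was at 7.79, 8.33 and 8.65 on mixed A and 7.56, 7.39 and 7.65 on mixed B at E14, and between 4.67 and 5.28 on the 6 mixed arrays of P0. That fall of 2.83 ± 0.17 (7.12-fold; limma, adjusted p = 6.65e-12) stood beside falls of all 28 tested cell cycle genes, a list with a median of −2.27. Spag7 fell by 0.81 ± 0.10, the nuclear envelope gene Spag4 by 0.48 ± 0.15 and the motor adaptor gene Spag9 by 0.24 ± 0.05 (limma, adjusted p from 7.74e-07 to 0.00144).

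Among axonemal members, Cfap300, a dynein arm assembly gene, fell most. Its values were 7.31, 7.19 and 7.17 on mixed A and 6.85, 6.86 and 7.35 on mixed B at E14, and 5.17, 4.99, 4.95, 5.48, 5.44 and 5.52 at P0, with a wide gap between the ages. The fall was 1.67 ± 0.16 (3.19-fold; limma, adjusted p = 5.44e-08). The inner arm motor Dnah1 (−0.45 ± 0.14), the assembly gene Spag1 (−0.44 ± 0.14), the doublet gene Cfap20 (−0.41 ± 0.10) and Cfap97 (−0.30 ± 0.10) were also called lower by limma (adjusted p from 0.000852 to 0.00321). After quantile normalization over all arrays these 4 were no longer called, and the split was 7 higher and 5 lower in place of 4 and 9. None of the 4 tested tektins passed.

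Foxj1 itself did not pass the test up to birth. Its arrays read 5.70, 5.55 and 5.32 on mixed A and 5.60, 5.53 and 5.33 on mixed B at E14, and 5.35, 5.23 and 5.90, then 5.46, 5.52 and 5.32, at P0. The ages overlapped, with a change of 0.15 ± 0.16 (limma, adjusted p = 1).

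From P0 to P14 the members divided. The outer arm intermediate chain Dnaic1, the assembly gene Spag1, Cfap54 and the tektin Tekt5 rose, while Foxj1, the tektin Tekt2 and the doublet gene Cfap126 fell. On the mixed backgrounds 8 of 31 were higher and 6 lower (45.2%), with 56.4% of all genes called (34.3% higher, 22.1% lower), and the members' median was −0.07 relative to a median gene that rose by 0.13. On the inbred background 8 were higher and 8 lower (51.6%), with 71.7% of all genes called (38% higher, 33.8% lower) and a median of −0.02. Both shares lay below that of all genes tested. On the mixed backgrounds quantile normalization gave 6 higher and 8 lower in place of 8 and 6. Some of the risers named below thus lost their call with it.

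**Figure D2:**
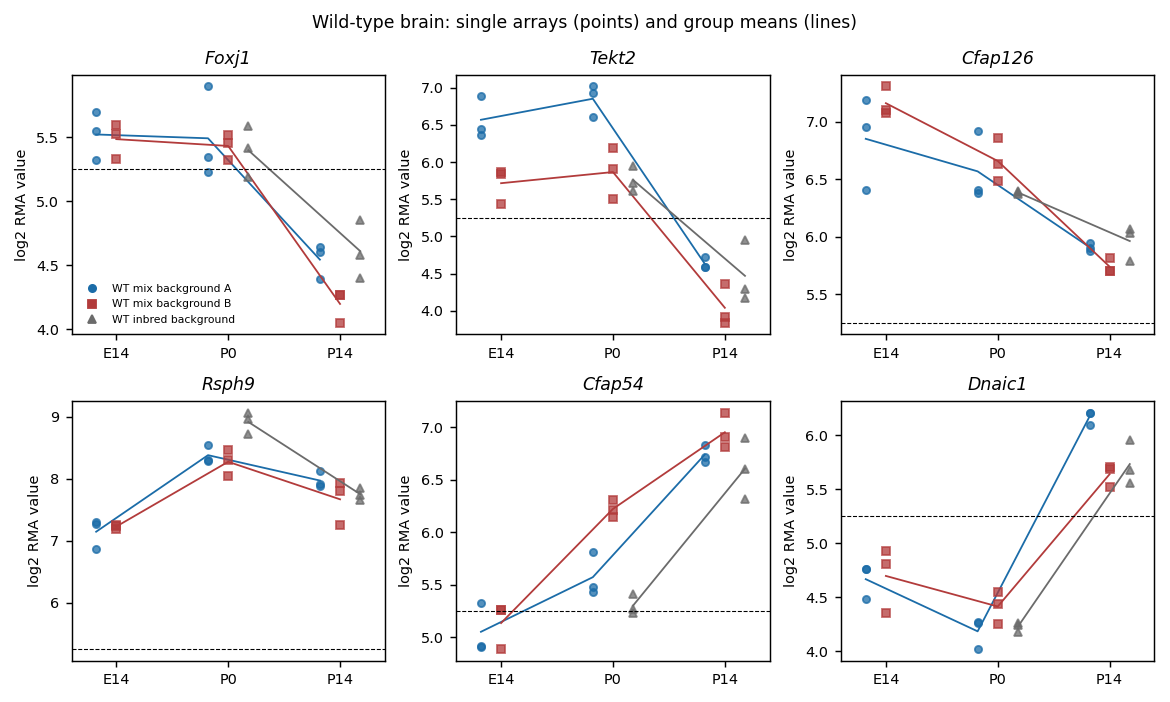
Levels of 6 members on the log2 RMA scale (vertical axis) at the 3 ages in the wild types, with single arrays as points and group means as lines; there is no inbred group at E14. Foxj1 and Tekt2 are lowest at P14, Dnaic1 is highest at P14, and Rsph9 is highest at P0.

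Foxj1 at P14 was at 4.60, 4.39 and 4.64 on mixed A, 4.27, 4.05 and 4.27 on mixed B and 4.58, 4.85 and 4.40 on the inbred background, whose P0 arrays had been at 5.19, 5.42 and 5.59. Every P14 array lay below every P0 array. The fall was 1.23 ± 0.16 on the mixed backgrounds (2.34-fold; limma, adjusted p = 1.58e-05) and 0.84 ± 0.16 on the inbred one (1.78-fold; limma, adjusted p = 0.000111). The P14 values are themselves under the filter, so Foxj1 was not tested between genotypes at that age.

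Tekt2, which lines the doublets, fell further. It was at 7.02, 6.93 and 6.61 on mixed A and 5.50, 6.19 and 5.91 on mixed B at P0, and at 4.72, 4.59 and 4.59, then 3.92, 3.84 and 4.36, at P14; the inbred arrays went from 5.95, 5.61 and 5.72 to 4.95, 4.29 and 4.17. The ages were separate on each background, and Tekt2 did not reach the filter at P14. The fall was 2.15 ± 0.20 on mixed backgrounds (4.45-fold; limma, adjusted p = 5.41e-08) and 1.33 ± 0.20 on the inbred one (limma, adjusted p = 6.59e-06).

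Dnaic1 moved the other way. Its 9 wild-type arrays at P0 lay between 4.02 and 4.55, and at P14 it was at 6.21, 6.21 and 6.10 on mixed A, 5.69, 5.52 and 5.71 on mixed B and 5.56, 5.68 and 5.96 on the inbred background. It rose by 1.48 ± 0.14 on the mixed and 1.46 ± 0.14 on the inbred background (2.79-fold and 2.76-fold; limma, adjusted p = 5.22e-08 and 1.41e-09). Because it reached the filter only at P14, its rise is a description of that pattern as much as a test.

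The other risers on both backgrounds were Spag1, Cfap54, Tekt5, Spag4, the doublet gene Cfap52 and the Arl3-binding Cfap36. On the mixed backgrounds Spag1 rose by 0.98 ± 0.14, Cfap54 by 0.81 ± 0.15, Tekt5 by 0.79 ± 0.21, Spag4 by 0.69 ± 0.15, Cfap52 by 0.45 ± 0.17 and Cfap36 by 0.39 ± 0.08 (limma, adjusted p from 5.33e-07 to 0.0269). The inbred values were 0.74, 1.26, 0.82, 0.79, 0.49 and 0.27 in the same order. Spag1, Tekt5, Spag4 and Cfap52 did not reach the limit for testing at P0, so their rises are descriptions as much as tests. Cfap54, unlike Rsph9, thus rose over both intervals: its P14 arrays were at 6.83, 6.72 and 6.67 on mixed A and 6.91, 7.14 and 6.81 on mixed B.

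Among the fallers Rsph9 turned back after its peak at birth, by 0.64 ± 0.15 on the mixed (limma, adjusted p = 0.0258) and 1.21 ± 0.15 on the inbred background (limma, adjusted p = 3.91e-07). Its inbred arrays went from 8.97, 8.72 and 9.07 to 7.66, 7.86 and 7.74. Cfap126, also known as Flattop, fell by 0.92 ± 0.16 and 0.47 ± 0.16 and Dnah1 by 0.55 ± 0.14 on each background, and the doublet gene Spag8 by 0.73 ± 0.13 on the mixed one (limma, adjusted p from 0.00104 to 0.0441). On the inbred background alone the test also called the outer arm motor Dnah11 higher (0.29) and Cfap300 (−0.66), Spag6l (−0.65) and the inner arm motor Dnah7a (−0.52) lower, and on the mixed backgrounds alone Cfap97 higher (0.15 ± 0.10). Whether these changes differ between backgrounds was not tested. Dnah1, Spag8 and Cfap300 reached the limit for testing at P0 and not at P14, and Dnah11 at P14 and not at P0. The changes of these genes are descriptions as much as tests.

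Some mixed-background calls rested on single arrays. Cfap52 lost its call without P0 mixed A replicate 1 or 2 or P14 mixed A replicate 2 or 3 (adjusted p from 0.0532 to 0.148), and Rsph9 without P0 mixed A replicate 1 (0.114) or P14 mixed A replicate 2 (0.0747) or 3 (0.0872). Cfap97 and Dnah1 each lost theirs in 7 of 12 runs that left out 1 array (limma). A second probe set of Cfap97 read −0.40 on the deposited scale (limma, adjusted p = 0.0741), against 0.28 for the first.

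**Figure D3:**
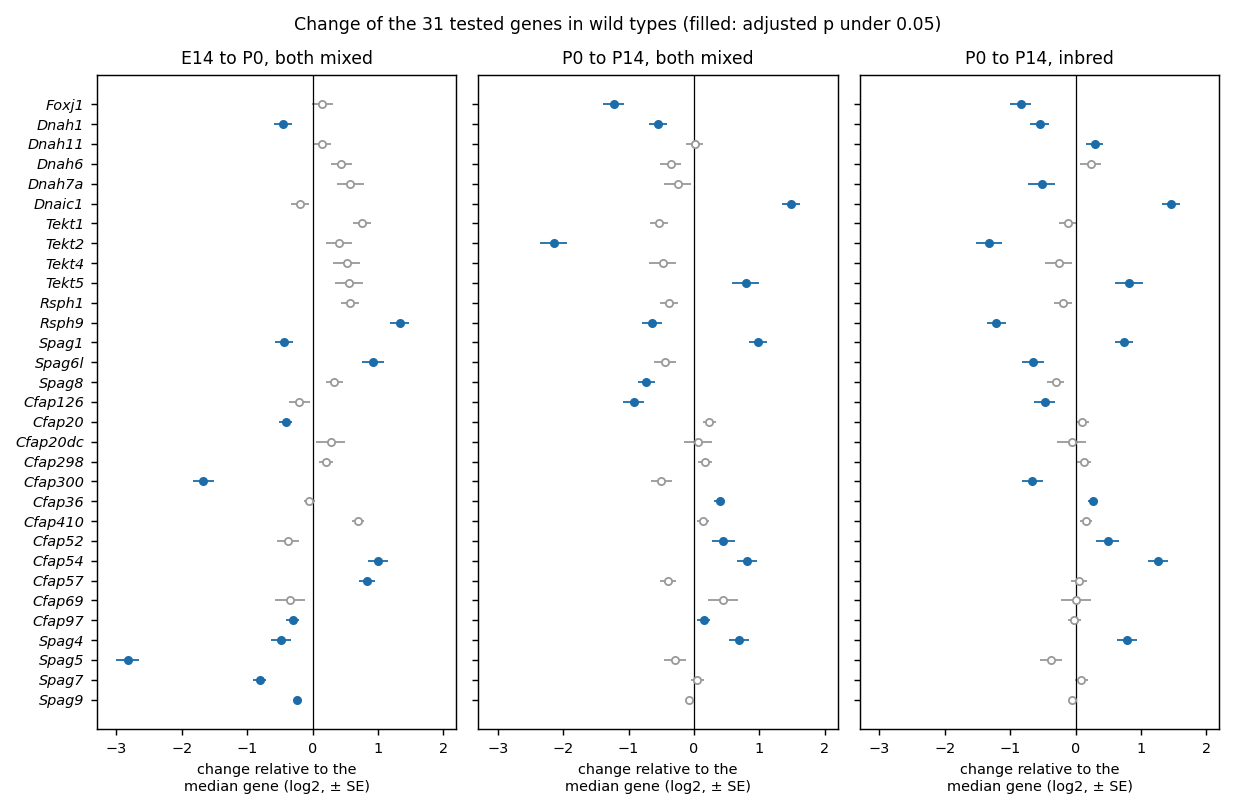
Change of the 31 tested members in wild types relative to the median gene (horizontal axis, log2, ± SE) from E14 to P0 and from P0 to P14 on the mixed and inbred backgrounds, filled where the adjusted p was under 0.05. Spag5 and Cfap300 fall before birth, Tekt2 and Foxj1 fall after it, and Dnaic1 rises after it on both kinds of background.

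Other genes of motile cilia, outside the symbol rule, also moved both ways. Among all genes tested, 14.8% were called higher and 35% lower before birth. After birth 34.3% were called higher and 22.1% lower on the mixed backgrounds, and 38% and 33.8% on the inbred one. Of 29 tested, 4 rose and 7 fell before birth: the nexin link gene Drc1 (1.66), the dynein light chain gene Dynlrb2 (0.85), Lrrc23 of the radial spokes (0.80) and Pifo (0.75) rose, while Mns1 (−0.98), Stk33 (−0.94), the assembly gene Dnaaf5 (−0.81) and Stk36 (−0.72) fell. After birth 10 rose and 8 fell on the mixed backgrounds, with Drc1 (0.97), the outer arm light chain gene Dnal1 (0.82), Vwa3a (0.70) and Ccdc103 (0.70) higher and Stk36 (−2.00), Dynlrb2 (−1.59), Lrrc23 (−0.96) and Pifo (−0.90) lower. On the inbred background 10 rose and 12 fell. The list's medians were 0.39, −0.11 and 0.09 relative to the median gene.

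Of 13 tested genes of the multiciliogenesis programme, which makes many basal bodies per cell, 7 fell before birth, among them Plk4 (−1.88), Rfx4 (−1.17), Myb (−1.11) and Rfx2 (−0.67), and none rose. After birth Cetn4 rose (0.76) while Myb (−1.97), Plk4 (−1.47) and Trp73 (−0.87) fell. Plk4 also serves the centriole cycle of dividing cells. Of 51 genes of intraflagellar transport and the primary cilium, which neurons also carry, 4 rose and 27 fell before birth, and 12 rose and 10 fell after it. Markers of cells that could carry or accompany these cilia moved in the same intervals: of 13 choroid plexus markers 3 fell before birth and 6 fell and 2 rose after it, and of 14 ependymal markers that are no axoneme genes 5 rose and 3 fell, then 7 rose and 4 fell. Of 14 astrocyte markers, several of which ependyma shares, 8 and then 13 rose. The part of the marked cells in the members' changes was not tested. All these counts stand beside the shares of all genes tested. Those were 14.8% higher and 35% lower before birth, and 34.3% and 22.1% after it on the mixed backgrounds.

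The mixed wild types A and B differed for the members at P0 and P14. At E14 limma called none of 25, with 0.0681% of all genes called. At an unadjusted p under 0.05 (limma) were 4 members and 1866 of 11744 genes. At P0, where 28.7% of all genes were called (18.1% higher and 10.7% lower in A), 8 of 24 members were (33.3%), 4 higher and 4 lower in A. Tekt2 was higher in A by 0.99 ± 0.19 and Tekt1 by 0.83 ± 0.16 (limma, adjusted p = 0.000336 and 0.000359). Tekt1 read 5.99, 5.67 and 6.13 in A against 5.09, 5.06 and 5.17 in B. Spag8 (0.62) and the basal body gene Cfap410 (0.40) were also higher in A, and Spag7 (−0.66 ± 0.09), Cfap54 (−0.65), Cfap300 (−0.45) and Cfap36 (−0.24) lower. The last 3 lost their calls in 5 of 6 runs that left out 1 array. The count was 5 without mixed A replicate 3 or without mixed B replicate 1, 2 or 3.

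At P14 only 6 of 26 members were called (23.1%), where 52.7% of all genes were, 37.4% higher and 15.2% lower in A. Cfap410 (0.74 ± 0.10; limma, adjusted p = 1.89e-06), Dnaic1 (0.53), Tekt5 (0.46), the spoke head gene Rsph1 (0.46) and the arm assembly gene Cfap298 (0.27) were higher in A and Spag9 (−0.53 ± 0.06; limma, adjusted p = 3.39e-07) lower. Relative to the median gene, itself 0.14 higher in A, the value of Cfap298 was 0.13; it lost its call in 3 of 6 runs without 1 array, and its second probe set read −0.08 (limma, adjusted p = 0.533). Tekt5 lost its call in 4 of 6. Between the inbred and both mixed wild types limma called no member at P0 (1 at an unadjusted p under 0.05, Rsph9, 0.59) or P14 (1, Cfap69, −0.59), with 1% and 0.244% of all genes called. Over all genes 1739 of 11780 and 923 of 12297 had such an unadjusted p (limma).

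At E14 no member was called in any of the 6 mutant groups. In limma the counts at an unadjusted p under 0.05, of 25 tested, were 1 in Lis1 ko/cko (Spag9, −0.23), 1 in Dcx ko/Y (Spag7, 0.27) and 0 in Lis1 ko/+, Ndel ko/+, Ndel ko/cko and 14-3-3 ko/ko. Of all genes 0%, 0.0426%, 0%, 0.0341%, 0% and 0% were called in the same order, so these comparisons called almost nothing. In that order 837, 203, 42, 297, 66 and 65 of 11744 genes had an unadjusted p under 0.05 (limma). Leaving out the 2 arrays labelled 14-3-3 ko/ko that keep Ywhae also gave 0.

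Some members separated from both wild types at E14 without passing. The share of all genes that did so is not given, so whether this is unusual cannot be judged. Besides those described next they included Spag7 in Dcx ko/Y (0.27), Spag6l in Ndel ko/cko (0.25) and Spag8 in Ndel ko/+ (−0.29). Cfap69, of the central apparatus, was at 4.71, 4.77 and 4.80 in Ndel ko/cko and 4.52, 4.81 and 4.99 in Dcx ko/Y, below every wild-type array, the lowest of which was at 5.04 (−0.71 ± 0.25 and −0.70 ± 0.25; limma, adjusted p = 1 in both). Rsph9 was 0.46 ± 0.23 higher in Ndel ko/+ (limma, adjusted p = 1), also without overlap. Foxj1 in Dcx ko/Y was 0.25 ± 0.14 higher (limma, adjusted p = 1).

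Single arrays of E14 also stood apart. On both arrays at which Ttr was near background, 5 of the 25 tested members lay below all 22 other arrays of that age, and 0 lay above. How many of all genes did so was not counted, so whether that share is unusual cannot be judged. Cfap126 was at 5.77 on Lis1 ko/+ replicate 1 and 5.72 on Lis1 ko/cko replicate 1 against 6.41 or more on the others. The other members were Rsph1 (5.49 and 5.55 against 5.65 or more), Cfap52 (4.77 and 4.42 against 5.13 or more), Cfap54 (4.77 and 4.52 against 4.80 or more) and Dnah1 (5.97 and 5.99 against 6.02 or more). For Cfap54 and Dnah1 the gap was within the spread of replicates.

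**Figure D4:**
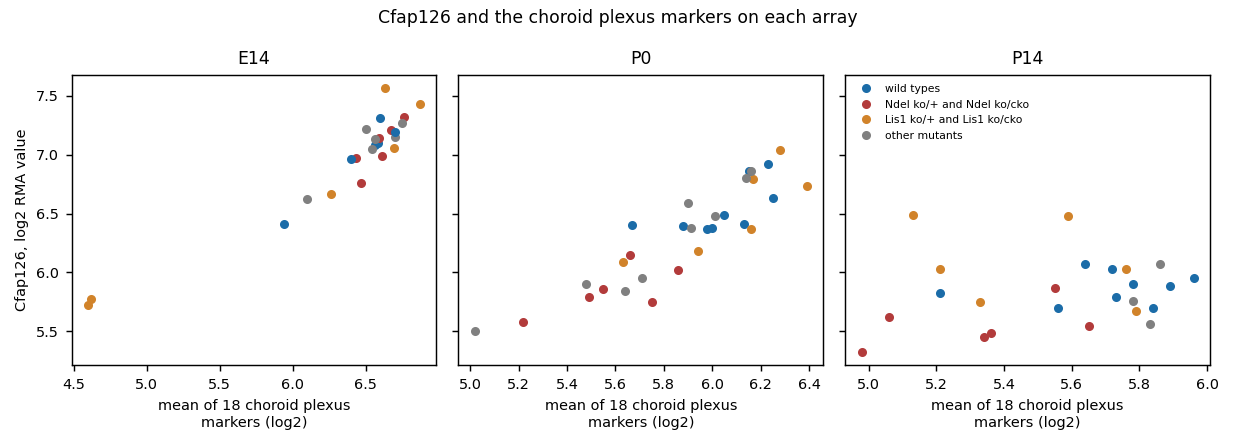
Level of Cfap126 (vertical axis, log2 RMA value) against the mean of 18 choroid plexus markers (horizontal axis, log2) on each array, in a panel per age. At E14 the 2 arrays with the lowest marker means, 4.60 and 4.62, are also the lowest for Cfap126; at P0 the Ndel ko/+ and Ndel ko/cko arrays lie low on both axes, as do those of 14-3-3 ko/ko inbred.

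At P0 the tektin Tekt2 was lower than in both mixed wild types in Ndel ko/+ and Ndel ko/cko, whose labels state no background. In Ndel ko/+ it was the 1 member called of 24 (4.17%), where 4.05% of all genes tested were called and 2.62% of all genes tested were called lower, so the share of members lay near that of all genes. In Ndel ko/cko 3 of 24 were called, all lower (12.5%): Tekt2, Rsph1 and Cfap126, where 0.849% of all genes were called and 0.713% were lower. The members' medians were −0.11 and −0.12 against −0.05 and −0.01 over all genes.

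Tekt2 was at 4.69, 4.54 and 4.65 in Ndel ko/+ and at 4.68, 5.30 and 4.91 in Ndel ko/cko. Neither group overlapped either mixed wild type, whose lowest array was at 5.50, and mixed A stood well above mixed B. In Ndel ko/+ the difference was −1.73 ± 0.19 (limma, adjusted p = 0.000373), made of −2.23 from A and −1.24 from B. Without any 1 of the 9 arrays of this comparison it was still called. In Ndel ko/cko it was −1.39 ± 0.19 (limma, adjusted p = 0.0164), made of −1.89 from A and −0.90 from B.

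Rsph1, a spoke head protein, read 5.61, 5.79 and 5.72 in Ndel ko/cko, below all 6 mixed wild-type arrays, which lay between 6.32 and 6.69. Its difference was −0.77 ± 0.15 (limma, adjusted p = 0.0164). In Ndel ko/+ it was at 6.43, 6.34 and 6.03 and overlapped the wild types (−0.21 ± 0.15, adjusted p = 0.766). Cfap126 was at 5.58, 5.75 and 6.02 in Ndel ko/cko and 5.79, 6.15 and 5.86 in Ndel ko/+, against 6.38 to 6.92 in the mixed wild types, again without overlap. The differences were −0.83 ± 0.19 (limma, adjusted p = 0.0468) and −0.68 ± 0.19 (limma, adjusted p = 0.0592); with the replicate number as a block Cfap126 was called in Ndel ko/+ too, which made 2.

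The Ndel ko/cko calls depended on single arrays. None of the 3 remained without mixed B replicate 2 or Ndel ko/cko replicate 1 or 3, Tekt2 alone remained without mixed B replicate 1 and Rsph1 alone without mixed B replicate 3. Tekt2 and Rsph1 remained without mixed A replicate 1 or 3 or Ndel ko/cko replicate 2. The adjusted p reached 0.174 for Tekt2, 0.12 for Rsph1 and 0.289 for Cfap126, which was lost in 8 of 9 runs. Differences themselves moved little, from −1.56 to −1.25 for Tekt2, −0.83 to −0.73 for Rsph1 and −0.95 to −0.73 for Cfap126. Both Ndel comparisons share the mixed wild types, so they are not independent of each other.

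Tekt1 lay below both mixed wild types without overlap, at 4.67, 4.53 and 4.73 in Ndel ko/+ and 4.52, 4.97 and 4.84 in Ndel ko/cko, but did not pass (−0.88 ± 0.16 and −0.74 ± 0.16; limma, adjusted p = 0.0929 and 0.541). Mixed A and B differ by about as much for this gene. Tekt1 is on chromosome 11 with Ndel1 and Pafah1b1, 130 and 59 protein-coding genes away, and so are 12 other members, among them Foxj1, Spag7 and Spag9; Tekt2, on chromosome 4, is not. Foxj1 was at 5.35, 5.34 and 5.34 in Ndel ko/+ and 5.02, 5.18 and 5.32 in Ndel ko/cko, with differences of −0.12 ± 0.16 and −0.29 ± 0.16 (limma, adjusted p = 1 and 0.791).

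Markers of the choroid plexus moved in the same groups. The mean of the 18 markers ran from 5.49 to 5.66 in Ndel ko/+ and 5.22 to 5.86 in Ndel ko/cko, below mixed A (mean 6.12, highest 6.23) and mixed B (6.05 to 6.25) without overlap. Of 12 tested, 4 were called lower in Ndel ko/+ (Clic6 −1.56, Folr1 −1.49, Calml4 −1.39, Aqp1 −1.32), with a list median of −0.75. In Ndel ko/cko limma called 0 of 12, 5 at an unadjusted p under 0.05, with a median of −0.66. Over all 11780 genes, 1964 in Ndel ko/+ and 1048 in Ndel ko/cko had an unadjusted p under 0.05 (limma). Of 13 ependymal markers outside the axoneme, Mia (−0.85), Vim (−0.65) and Nnat (−0.40) were lower and Cd24a was higher in Ndel ko/+, and Aqp4 (−1.01), Mlc1 (−0.68) and Nnat (−0.34) were lower in Ndel ko/cko. Of 13 astrocyte markers, Slc1a3 (−0.56), Apoe (−0.75) and Aqp4, which is on both lists, were called lower in Ndel ko/cko, with a list median of −0.25, and Aldoc (−0.51) in Ndel ko/+, with a median of −0.09. Markers of other cells were mostly lower in Ndel ko/cko as well, without a call. Meningeal ones ran from −0.69 (Col1a1) to 0.07 (Dcn) and microglial ones from −0.63 (C1qa) to −0.07 (P2ry12). The part of any of these cells in the members' differences was not tested. The difference between 3′ and 5′ probe sets of actin ran from 0.274 to 0.449 in mixed B, the Ndel groups and Dcx ko/Y and from 0.122 to 0.214 in the other P0 groups, so that mixed A and the Ndel mutants also differ in that measure, whose part was not tested either.

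Outside the symbol rule, Lrrc23 of the radial spokes was the 1 of 22 tested motile cilia genes called in Ndel ko/cko (−0.84 ± 0.18; limma, adjusted p = 0.0266), and none was called in Ndel ko/+ (1 at an unadjusted p under 0.05). The list's medians were −0.22 and −0.15. Of 12 multiciliogenesis genes limma called none in either group, with 1 and 2 at an unadjusted p under 0.05. Of 48 genes of intraflagellar transport and the primary cilium Cep290 (0.93) was called higher in Ndel ko/+ and none in Ndel ko/cko (2 at an unadjusted p under 0.05).

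**Figure D5:**
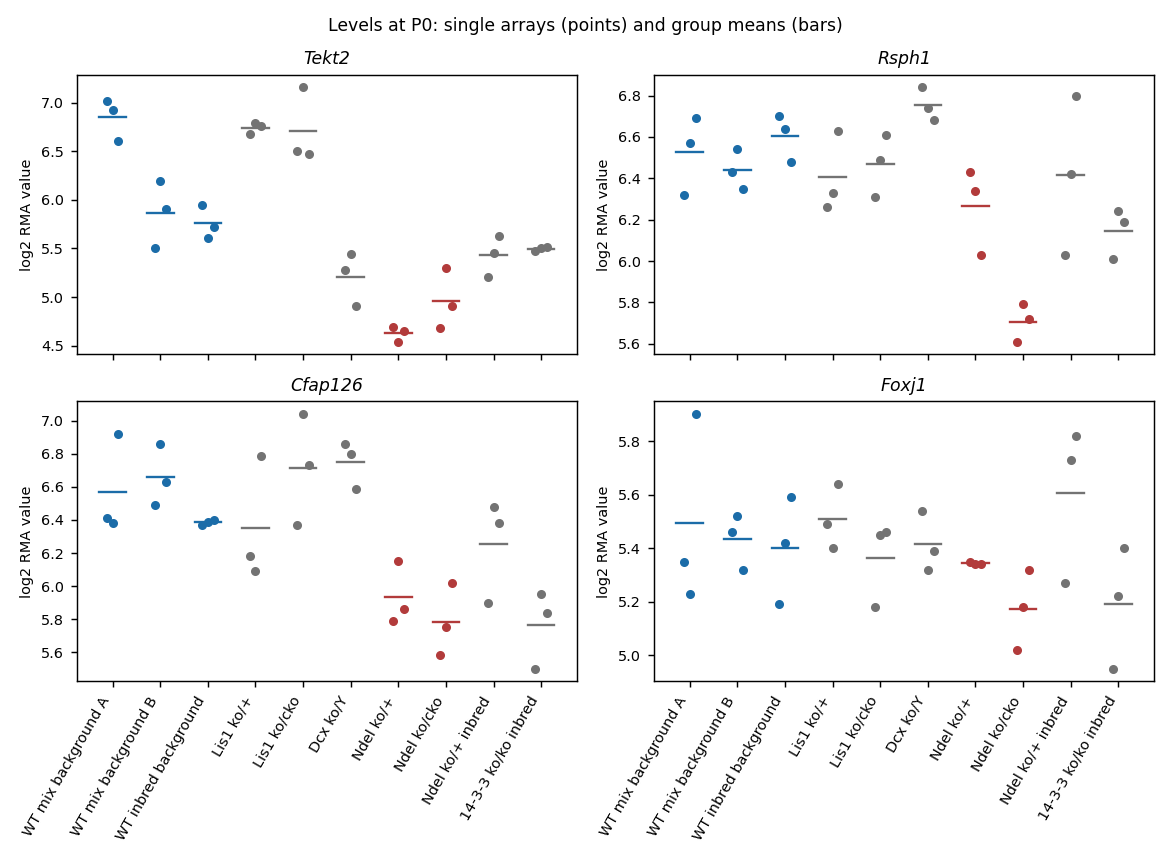
Levels at P0 of Tekt2, Rsph1, Cfap126 and Foxj1 (vertical axes, log2 RMA value) in the 10 groups, with single arrays as points and group means as bars. Tekt2 is lowest in Ndel ko/+ (4.54 to 4.69), and the wild types of mixed background A and B stand apart from each other.

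The other P0 mutants called no member, and of all genes at most 0.331% were called. Limma gave 0 of 24 in Lis1 ko/+ and Lis1 ko/cko, with 0% and 0.331% of all genes called. At an unadjusted p under 0.05 (limma) were 0 members in each of these groups, against 183 and 1276 of 11780 genes. Tekt2 there was at 6.68, 6.79 and 6.76 and at 6.50, 7.16 and 6.47, in or near the range of mixed A, and Cfap126 at 6.18, 6.09 and 6.79 and at 6.37, 7.04 and 6.73. In Dcx ko/Y limma also gave 0, with 0.0255% of all genes called. Here 2 members, Tekt2 (−1.15 ± 0.19) and Spag7 (0.52), had an unadjusted p under 0.05 (limma), as had 346 of 11780 genes. Tekt2 read 5.28, 5.44 and 4.91 there, below every mixed array, with −1.64 from A and −0.66 from B (limma, adjusted p = 0.873). Rsph1 at 6.84, 6.74 and 6.68 and Cfap126 at 6.86, 6.80 and 6.59 were not low in Dcx ko/Y.

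The inbred mutants were set against the inbred wild type. The 24 members had 0 calls in 14-3-3 ko/ko inbred (limma), with 0.0255% of all genes called. At an unadjusted p under 0.05 (limma) were 5 of the 24 members and 1161 of 11780 genes. Cfap126 read 5.50, 5.95 and 5.84 against 6.37, 6.39 and 6.40, and Rsph1 6.01, 6.24 and 6.19 against 6.70, 6.64 and 6.48, each without overlap. The differences were −0.63 for Cfap126, −0.57 for Tekt4, −0.52 for Tekt1 and −0.46 for Rsph1 (limma, adjusted p from 0.303 to 0.345). The median of the 24 was −0.15, against −0.04 over all genes. The choroid plexus mean ran from 5.02 to 5.71 there and from 5.67 to 5.98 in the inbred wild type, with 0 of 12 markers called by limma and 6 at an unadjusted p under 0.05; its part was not tested.

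Limma called 0 members in the group labelled Ndel ko/+ inbred, with 0.255% of all genes called. At an unadjusted p under 0.05 (limma) were 4 members and 1791 of 11780 genes. Tekt2 at 5.21, 5.45 and 5.63 overlapped its wild type, unlike in the Ndel ko/+ group of unstated background; that contrast was not tested. Spag7 (−0.38; limma, adjusted p = 0.0611) was called without inbred wild-type replicate 3 or Ndel ko/+ inbred replicate 1, which made 1. Ndel1 itself was not lower in this group, as given above.

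At P14 no member was called in any of the 5 mutant groups. In limma, of 26 tested, 2 in Lis1 ko/+, 4 in Lis1 ko/cko, 0 in Ndel ko/+, 2 in Ndel ko/cko and 0 in Ndel ko/+ mix background had an unadjusted p under 0.05. Over all 12297 genes 194, 2376, 128, 385 and 533 had such a p in the same order (limma). Called were 0%, 6.32%, 0%, 0.0895% and 0.114% of all genes. Lis1 ko/cko was thus the P14 group with the most genes called, and no member was among them.

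In Lis1 ko/cko Tekt1 was at 5.87, 5.73 and 5.45, with a difference of 0.57 (limma, adjusted p = 0.0675). Tekt4 was at 5.75, 5.45 and 5.31 there and between 4.41 and 5.09 in the mixed wild types; it reached the limit for testing only in the 2 Lis1 groups, so its difference of 0.69 is a description. Spag1 was at 5.33 or less on all 3 arrays, below the lowest mixed wild-type array at 5.65 (−0.73, 0.0779), and Spag9 differed by −0.44 (0.0981), both also by limma. Without Lis1 ko/cko replicate 3, Tekt1, Spag1 and Spag9 were called. In Lis1 ko/+ the same signs were seen for Tekt1 (0.49) and Spag1 (−0.58). Cfap126 was at 6.03, 6.49 and 5.75 in Lis1 ko/cko, and in the mixed wild types between 5.70 and 5.95.

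Genes outside the symbol rule were called in Lis1 ko/cko at P14. Of 10 tested multiciliogenesis genes, the X-box factor gene Rfx3 (−1.10 ± 0.17; limma, adjusted p = 0.0083) and the centrin gene Cetn2 (−0.79 ± 0.11; limma, adjusted p = 0.00865) were lower, with a list median of −0.02. Of 47 genes of intraflagellar transport and the primary cilium Arl3 (−0.23) was lower, and of 27 other motile cilia genes limma called none (1 at an unadjusted p under 0.05). Of 10 choroid plexus markers only Ttr was called (−4.38 ± 0.90; limma, adjusted p = 0.0122), while the other 9 lay between −0.77 and 0.15. Of 14 ependymal markers Vim (0.93) and Gjb6 (0.84) were higher and Cd24a (−0.82) lower, and of 14 astrocyte markers Gfap (1.36) and Gjb6 were higher and Slco1c1 (−0.50) lower. Lists of other cells held calls too: the microglial markers C1qc (1.22) and C1qb (0.71) were higher. The cell cycle genes Mki67 (−1.16), Top2a (−0.91), Cdk1 (−0.71) and Mcm5 (−0.47) were lower. The part of any of these cells in the members' values was not tested.

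In Ndel ko/cko at P14 Cfap54 was at 5.20, 5.57 and 6.61, so that 1 array stood near the wild types and 2 below them (−1.05; limma, adjusted p = 0.717). Without replicate 3 it was called. The nexin link gene Drc1, outside the symbol rule, was lower against both wild types (−0.98 from A and −0.60 from B; mean −0.79 ± 0.09; limma, adjusted p = 0.00266), the 1 called of 27 other motile cilia genes and among the 11 genes called in that group. The astrocyte marker Ntsr2 (−0.77) was lower too, and limma called none of the 10 tested multiciliogenesis genes (0 at an unadjusted p under 0.05) or choroid plexus markers (3 at an unadjusted p under 0.05). Ttr, called in Lis1 ko/cko, differed by −3.56 ± 0.90 in Ndel ko/cko as well (−3.93 from A and −3.2 from B), without passing (limma, adjusted p = 0.566). Cfap69 was 0.61 higher and did not pass. Tekt2, low in this genotype at P0, lay between 3.84 and 4.95 on the 9 wild-type arrays of P14, under the filter.

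Whether a mutant's difference changed from P0 to P14 was tested as an interaction over 31 members. Limma called 0 for Lis1 ko/cko, with 2.87% of all genes called. At an unadjusted p under 0.05 (limma) were 6 members and 1829 of 13053 genes. Cfap20dc was at 1.08 and Spag9 at −0.52 (limma, adjusted p = 0.106 and 0.104). Without P14 Lis1 ko/cko replicate 3, 2 were called, Spag1 and Spag9. Outside the symbol rule this test called Rfx3 (−1.17) and B9d2 of the primary cilium (0.82). For Ndel ko/cko limma called 0, with 0.046% of all genes called. At an unadjusted p under 0.05 (limma) were 2 members and 624 of 13053 genes. Tekt2 was at 1.18 (limma, adjusted p = 0.226) and Cfap20dc at 1.06. Tekt2 lay under the filter on the P14 wild-type arrays, where a drop could hardly show. Its value can therefore not be read as a recovery.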

How the data were processed

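The deposited values are log2 values of probe sets summarized by the authors with RMA, per the submitters' processing notes. The sources used here do not give its version. They lie between 2.606 and 14.24. Arrays carry no read depth: 3 per group limit the precision, and p-values measure the spread between samples that the labels call biological replicates. Of the probe sets, 34958 name 1 gene and were used, and 932 name several (2 of them with member symbols) and were not. Tests used limma 3.58.1 in R 4.3.3 (lmFit, eBayes with a trend) with 1 fit per age, 1 fit of the wild types of all ages, and 1 fit of all arrays for interactions; Benjamini-Hochberg adjustment ran over all genes tested, with calls under 0.05. Against both mixed wild types the larger p was used, the mean of both differences and the larger SE. Genes under 5.253 in every group mean were not tested. Ages appear normalized separately, so development is given relative to the median gene. The procedure was tested on simulated data in which mixed A and B had the same levels. That test does not show how the rule with both wild types behaves where they differ, as they do here.

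Named were Foxj1, the called members (up to 12 each way over ages, 8 elsewhere) and, for each other list where it is described, up to 4 called genes; members not called were named after their values were seen. Members and lists were chosen with earlier results of these data known, and 24 listed genes were not matched on the array. No pairing of samples by replicate number was seen: in 0 of 28 comparisons did every same-numbered pair correlate over 0.1 (27 of 306 pairs did). This check cannot show whether samples shared a litter or a day of handling. Alternatives were other filters, quantile normalization, a second probe set, either mixed wild type alone, a replicate block, leaving out each array, and, chosen after seeing the data, leaving out 6 E14 arrays of low region level or 2 arrays labelled 14-3-3 ko/ko. RefSeq names and promoters are on GRCm38.p6.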

Additional observations from a re-analysis of the deposited data

How the results depend on the processing

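Counts of members called moved by over 1.5 times as follows. Using mixed wild type A alone gave 22 (10 higher) from E14 to P0, 22 (13 higher) from P0 to P14, 1 for the inbred wild type at P0, 1 for Lis1 ko/cko, 10 for Ndel ko/+, 11 for Ndel ko/cko and 6 for Dcx ko/Y at P0, 2 for Lis1 ko/cko, 7 for Ndel ko/+ and 8 for Ndel ko/cko at P14, and 1 and 5 for the Lis1 and Ndel interactions. Using mixed B alone gave 4 and 6 for the inbred wild type at P0 and P14, 6 for Lis1 ko/+, 6 for Lis1 ko/cko and 4 for Ndel ko/+ at P0, 8 for Lis1 ko/+, 10 for Lis1 ko/cko and 7 for Ndel ko/+ mix background at P14, and 8 for the Lis1 interaction. Testing each gene whatever its level gave 25 from P0 to P14 on the inbred background and 12 between A and B at P14. The stricter filter, 7.627, which tests fewer genes, gave 6, 3 and 2 for the changes with age (mixed E14 to P0, mixed P0 to P14, inbred), 2 and 3 between A and B at P0 and P14, 0 for Ndel ko/+ and Ndel ko/cko at P0, and 1 for Ndel ko/+ inbred. The replicate block gave 2 for Ndel ko/+ at P0 and moved no other count by that much, though no pairing by number was seen. With a second probe set Cfap97 read −0.40 after birth and Cfap298 −0.08 between A and B at P14. There 1 further result of a named member kept its sign and lost its call, as did 10 results after quantile normalization. Cfap126 in Ndel ko/cko had an adjusted p of 0.0616 without a filter and 0.0628 after quantile normalization (limma). The cause of these shifts was not tested beyond the changed set of arrays or genes. Leaving out 1 array at a time gave 13 to 16 from E14 to P0, 11 to 14 and 14 to 18 from P0 to P14 (mixed, inbred), 5 to 7 and 4 to 7 between A and B at P0 and P14, 1 for Ndel ko/+ and 0 to 3 for Ndel ko/cko at P0, 0 to 1 for Ndel ko/+ inbred, 0 to 3 for Lis1 ko/cko and 0 to 1 for Ndel ko/cko at P14, 0 to 2 for the Lis1 interaction, and 0 in every run for the other comparisons. Levels near background limit what can be said of the 28 members under the filter.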
